A study of Sus scrofa with 16 samples.

Results

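Scar and border tissue of the left ventricle was compared within the same injured hearts. Of the 16 RNA-seq samples in the series, 8 enter that comparison: the scar and the border zone of 4 White Yorkshire-Landrace pigs (pigs 2 and 14, female, and pigs 9 and 11, male) that underwent ischemia-reperfusion (IR) at 30 days of age. In IR pigs the left anterior descending coronary artery was occluded for 1 h and then reopened. The scar zone was tissue just below the point of occlusion and held scar together with the muscle beside it, and the border zone was left ventricle next to it. The other 8 samples are the matching 2 positions, the piece named scar being taken at the point of occlusion, in 4 sham-operated pigs (4 and 5, female, 12 and 13, male) of the same breed and age, which had the same surgery without closing the artery, and they serve here as the regional background. Tissue was taken 4 weeks after surgery in every pig, so that all groups share the operation. A cube of tissue holds all the cell types of that piece of ventricle. The genes of interest were those whose scar zone level lay on the same side of the border zone level in all 4 IR pairs.

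After an infarct, dead cardiomyocytes are removed by phagocytes, and fibroblasts become activated, spread and lay down collagen-rich matrix that is crosslinked into a scar. The matrix of an older scar also carries small leucine-rich proteoglycans, which organise collagen fibrils, and matricellular proteins, which signal to cells without building the fibre itself. The border zone beside it is mostly surviving muscle that makes contractile proteins and depends on mitochondrial oxidation for its energy.

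Ventricular muscle markers were high in both zones. The deposited TPM (a transcript level scaled for length and depth) of MYL2, the ventricular regulatory light chain, ran from 3006 to 3190 in the scar zone libraries and from 2834 to 4042 in the border zone libraries, while SLN, an atrial gene, stayed at or below 0.602 TPM. MYL4, the atrial light chain, was higher, running from 2.099 to 63.2 TPM in the scar zone and from 5.37 to 66.5 TPM in the border zone. PLIN1, an adipocyte gene, stayed at or below 0.144 TPM in all 8. DCN, a fibroblast proteoglycan, ran from 381 to 1726 TPM in the scar zone and from 485 to 555 TPM in the border zone. The libraries held 15427663 to 49045206 estimated counts. Depth moved with sex, the female IR libraries holding 15427663 to 21166014 and the male ones 33521418 to 49045206. The scar library of pig 14, labelled female, had 4.48 CPM (counts scaled to library size) of the Y-linked gene DDX3Y, against 0.389 to 1.23 CPM in the 7 other libraries labelled female and 68.4 to 103 CPM in the 8 male ones. KDM5D, also Y-linked, had 0.408 CPM there, 0 CPM in those 7 and 4.27 to 10.1 CPM in the male ones, so that the levels were 5.53% and 6.94% of the male means. The part of RNA from a male library in the values of pig 14 was not tested, and the counts of genes are also given without that pig.

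At a limit of 2-fold, most genes that separated scar from border were higher in the scar. Of 14170 genes tested, 144 (1.02%) were at least 2-fold higher in the scar zone with an unadjusted p of at most 0.05 and the same direction in all 4 pairs, and 15 (0.106%) were lower by the same rule. By direction alone, 1424 genes (10%) were higher and 1568 (11.1%) lower in all 4 pairs, and with the p but no fold threshold 707 were higher and 580 lower. The test was edgeR's quasi-likelihood test with the pig as a block, and after Benjamini-Hochberg adjustment over all genes it called 0 genes, with a smallest adjusted p of 0.431 although 1601 genes (11.3%) had an unadjusted p of at most 0.05. DESeq2 on the same pairs called 28 genes past both thresholds. Every gene below is therefore described by its direction and values in the 4 pairs. Its p is unadjusted unless said otherwise, with an adjusted p of 0.431 or more. The rule thus sets no limit on the number of false calls among 14170 genes. On simulated counts with no gene changed, the same rule still called 45 genes, higher and lower together. Without pig 14 the counts were 282 higher and 23 lower, and without pig 2 they were 328 and 30. Without pig 11 they were 79 and 17, and without pig 9 they were 113 and 15. With a pig left out, the same direction was needed in the remaining pairs only, which is easier to meet than in all 4. Just inside the p threshold stood AQP9 (log2 fold change 1.07 ± 0.44 SE, unadjusted p = 0.0473) and just outside it MYO1D (1.14 ± 0.48, unadjusted p = 0.0514). As a description only, since the same 8 values chose the genes, every scar library lay above every border library for 34 of the 144 genes (151, or 1.07%, of all genes tested), and 4 of the 15 lower genes had no overlap in the other direction (132, or 0.932%, of all genes).

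**Figure D1:**
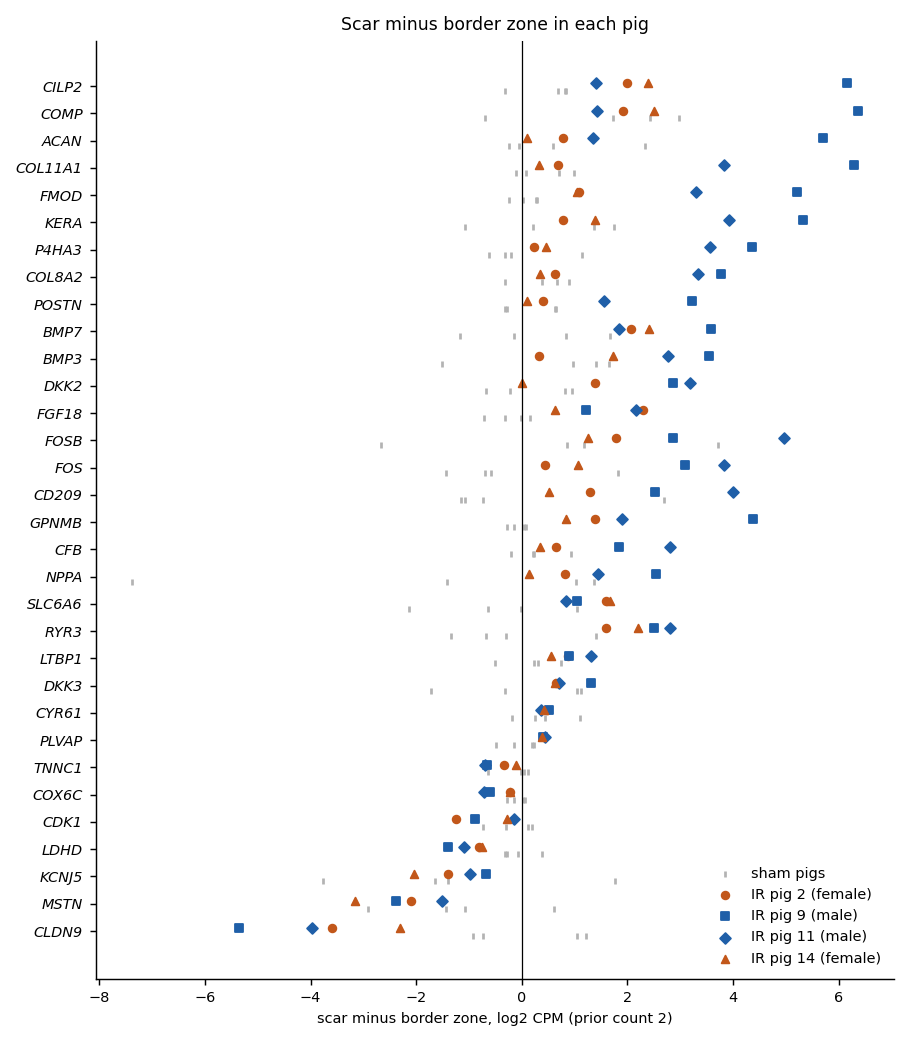
Scar minus border zone difference in log2 CPM (horizontal axis) for 32 named genes, with 1 symbol per IR pig (orange female, blue male) and grey ticks for the 4 sham pigs. All 4 IR symbols lie on the same side of the vertical zero line for every gene drawn, and for CILP2 they run from 1.40 to 6.16.

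Genes of cartilage-like matrix stood, by list median, furthest from the border zone. Of 14 tested genes of that list, 7 were higher in all 4 pairs, beside 10% of all genes, and all 7 also passed the p and fold thresholds. The list median log2 fold change was 1.20 against 0.0099 over all genes, and 13 of the 14 were positive. SOX9 (0.63) and HAPLN3 (-0.37) were among those without the same direction in all 4 pairs. COL2A1, COL9A1, COL10A1 and the tendon genes SCX and TNMD did not pass the filter on low counts. In sham pigs the list median was 0.074 over the members that passed the filter on low counts there, which leaves out COMP, ACAN and MATN3. The list mean over all members tested in IR pigs differed by 0.64, 3.003, 1.07 and 0.40 log2 CPM in pigs 2, 9, 11 and 14 and by 0.39, 0.35, 0.71 and -0.047 in sham pigs 4, 5, 12 and 13, so that both female IR pigs lay within the sham span. Sham medians of the lists below are likewise over the members tested in sham pigs. CILP2, a secreted protein of the cartilage intermediate layer, had 3.499, 72.8, 0.863 and 0.951 CPM in the scar zone of pigs 2, 9, 11 and 14 and 0.8202, 0.942, 0.278 and 0.117 CPM in their border zones. Each pig had more in its scar, and the zones overlapped only in that the scar of pig 11 lay below the border zone of pig 9. The log2 fold change was 3.92 ± 0.94, unadjusted p = 0.00493. COMP, a pentameric glycoprotein that binds fibrillar collagen, followed with 3.33, 101, 1.19 and 1.698 CPM in the scar and 0.8202, 1.14, 0.394 and 0.234 CPM in the border zone, in the same pig order (log2 fold change 3.90 ± 0.99, unadjusted p = 0.00655). In sham pigs, at no more than 1.301 CPM, COMP differed by 1.73, 2.43, 2.97 and -0.70 log2 CPM, and the IR minus sham difference was 1.37 (unadjusted p = 0.566). For COMP and each gene below, the IR minus sham difference uses the same IR pairs by which the gene was chosen, so that its p is a description and no independent support. In IR pigs the COMP libraries of the scar all lay above those of the border zone, and pig 9 had the highest scar value of both genes. ACAN, the large aggregating proteoglycan of cartilage, was at 1.38, 53.3, 0.595 and 0.0679 CPM in the scar and 0.772, 0.942, 0.185 and 0.0584 CPM in the border zone, so that its level outside pig 9 was low (log2 fold change 3.43 ± 1.08). Without 1 pig in turn, its log2 fold change ran from 1.14 to 4.84, that of COMP from 2.05 to 4.84 and that of CILP2 from 2.07 to 4.96.

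The other members of the list that were higher in every pair were CHAD, MATN3, HAPLN1 and FMOD, the last of which is described with the proteoglycans. CHAD, a leucine-rich protein that binds collagen and integrin, differed by 0.52, 3.66, 1.60 and 0.37 log2 CPM in pigs 2, 9, 11 and 14. HAPLN1, the link protein that ties aggrecan to hyaluronan, was the one among them in which a male pig did not lead, with 0.8603, 0.535, 0.179 and 2.24 CPM in the scar and 0.0482, 0.228, 0.162 and 0.993 CPM in the border zone. Pig 14 had its highest level in both zones, and without that pig HAPLN1 did not pass the filter on low counts. MATN3, a matrilin, was under 1 CPM in every library but the scar of pig 9, at 0.172, 2.001, 0.476 and 0.543 CPM in the scar zones. RUNX2 and SP7, transcription factors of bone-forming cells, and TNFRSF11B, the decoy receptor that restrains osteoclasts, were in no list and were picked after their values were seen. TNFRSF11B had 4.703, 6.61, 4.97 and 4.08 CPM in the scar and 2.61, 1.83, 2.55 and 0.876 CPM in the border zone, without overlap between the zones (log2 fold change 1.43 ± 0.28, unadjusted p = 0.001601). RUNX2 differed by 1.67, 1.29, 1.77 and 0.39 and SP7 by 1.03, 1.23, 0.38 and 0.87 log2 CPM in the 4 pigs, both at or below 1.51 CPM.

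**Figure D2:**
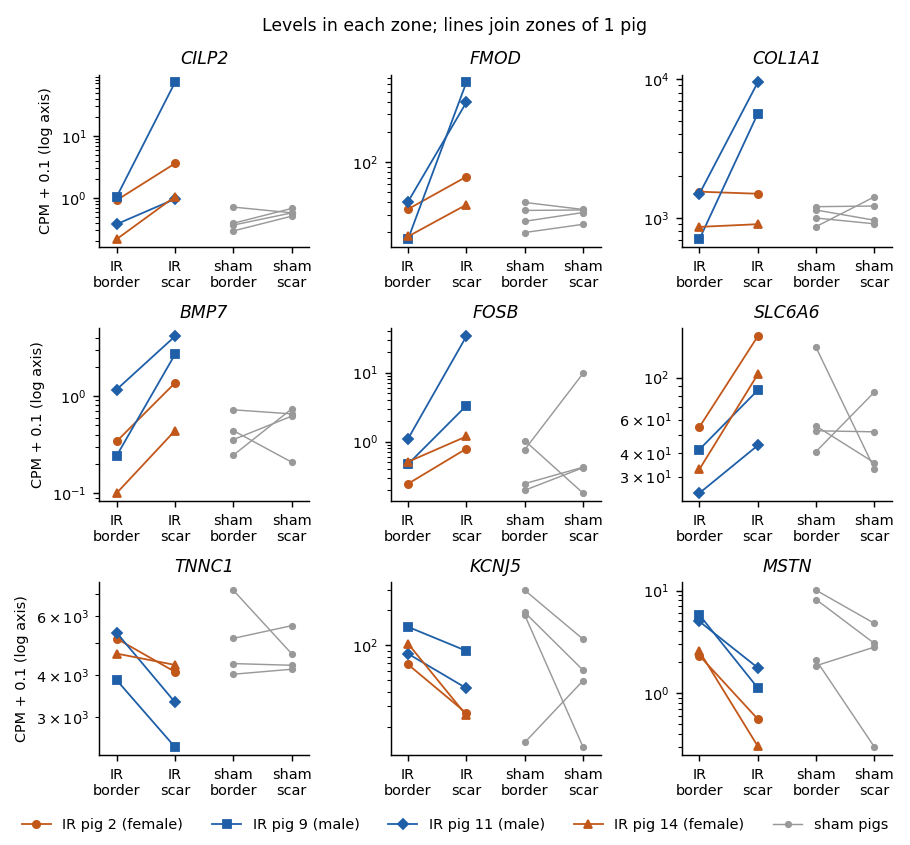
CPM plus 0.1 on a log axis for 9 genes in the border and scar zones of IR pigs (coloured) and sham pigs (grey), with lines joining the 2 zones of 1 pig. CILP2, FMOD, BMP7, FOSB and SLC6A6 lines of IR pigs all climb towards the scar, TNNC1, KCNJ5 and MSTN lines all descend, and COL1A1 lines climb steeply in the 2 male pigs only.

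Collagens were higher in the scar on average, but few members were so in each pig. All 10 tested fibrillar collagen genes had a positive log2 fold change (median 0.77, sham 0.084), yet 2 of them, COL11A1 and COL5A3, were higher in all 4 pairs, beside 10% of all genes. COL11A1, a minor chain that nucleates fibrils, had 5.105, 127, 30.04 and 1.63 CPM in the scar and 3.14, 1.54, 2.04 and 1.29 CPM in the border zone of pigs 2, 9, 11 and 14. Its difference was thus under 1 log2 unit in the 2 female pigs and above 3 in the 2 males (log2 fold change 3.27 ± 1.09, unadjusted p = 0.0214). COL1A1, the chief chain of scar collagen, had 1495, 5642, 9479 and 902 CPM in the scar and 1547, 704, 1492 and 863 CPM in the border zone. The pairs differed by -0.050, 3.003, 2.67 and 0.065 log2 CPM, so that the scar was far higher in pigs 9 and 11 and level in pigs 2 and 14. COL3A1, which forms fibrils together with type I collagen, differed by -0.24, 1.99, 1.77 and -0.33 log2 CPM, so that both female pigs had slightly less in the scar. COL24A1, another fibrillar chain, differed by 0.99, 2.89, 1.39 and -0.95.

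Among the other interstitial collagens, 3 of 12 tested were higher in all 4 pairs, beside 10% of all genes, and all 3 passed the p and fold thresholds (list median 0.81, sham 0.20). COL8A2, a short-chain collagen of vessel walls and healing tissue, had 6.02, 31.6, 25.2 and 3.13 CPM in the scar and 3.86, 2.25, 2.41 and 2.45 CPM in the border zone (log2 fold change 2.23 ± 0.67, unadjusted p = 0.0145). COL12A1, which sits on the surface of type I fibrils, had 44.7, 343, 169 and 64.1 CPM against 35.5, 28.3, 32.3 and 44.3 CPM. COL12A1 was also higher in the scar position of all 4 sham pigs, by a log2 fold change of 0.53 (unadjusted p = 0.00272). COL6A5, a beaded-filament chain, differed by 0.40, 3.91, 0.57 and 2.11 log2 CPM, the highest being pig 9. Of 14 tested basement membrane genes 0 were higher in all 4 pairs (10% of all genes), their log2 fold changes ran from -0.15 to 0.22, and HSPG2, or perlecan, differed by 0.21, -0.15, 0.31 and 0.033 log2 CPM.

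Enzymes that make, link and cut collagen showed the same mixture. P4HA3, a subunit of the prolyl hydroxylase that stabilises the collagen helix, was higher in each pig, with 1.03, 7.93, 7.18 and 0.272 CPM in the scar and 0.868, 0.314, 0.533 and 0.175 CPM in the border zone (log2 fold change 2.86 ± 0.82, unadjusted p = 0.0114). LOX, the lysyl oxidase that crosslinks collagen and elastin, had 17.4, 99.8, 141 and 19.6 CPM in the scar and 18.3, 22.4, 31.6 and 20.6 CPM in the border zone. The pairs differed by -0.077, 2.15, 2.15 and -0.076 log2 CPM, so that the male and female pigs lay apart. Of 22 tested genes for collagen processing and crosslinking, 3 were higher in all 4 pairs, a share near that of all genes, with a median of 0.41. Among 22 tested matrix proteases and inhibitors, 6 were higher in all 4 pairs, beside 10% of all genes, and 2 passed the thresholds, ADAM12 and ADAMTS4 (list median 0.53). ADAMTS4, an aggrecan-cleaving protease, had 8.72, 6.398, 8.604 and 4.28 CPM in the scar and 5.93, 2.28, 1.99 and 3.68 CPM in the border zone (log2 fold change 1.12 ± 0.33, unadjusted p = 0.01304). ADAM12, a membrane protease of activated mesenchymal cells, differed by 0.058, 3.47, 2.97 and 0.25 log2 CPM. TIMP1, an inhibitor of matrix metalloproteases, differed by 0.052, 1.47, 1.07 and 0.058 log2 CPM.

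Small leucine-rich proteoglycans were higher in every pair for 4 of 11 tested members, FMOD, KERA, BGN and CHAD, beside 10% of all genes, and all 4 passed the p and fold thresholds (list median 0.57, sham 0.044). FMOD and CHAD are counted in the cartilage-like list too. FMOD, or fibromodulin, a regulator of fibril thickness, had 71.6, 628, 397 and 37.6 CPM in the scar and 33.9, 16.95, 40.2 and 18.1 CPM in the border zone. Each female pig had about a doubling and each male pig a much higher scar value, and the log2 fold change was 2.63 ± 0.77, unadjusted p = 0.0126. In sham pigs the FMOD log2 fold change was 0.074, and the IR minus sham difference, which rests on the same IR pairs, was 2.57. KERA, or keratocan, had 2.696, 9.89, 24.9 and 1.49 CPM against 1.54, 0.171, 1.58 and 0.526 CPM (log2 fold change 3.14 ± 0.81, unadjusted p = 0.00703). BGN, or biglycan, differed by 0.25, 3.20, 1.89 and 0.71 log2 CPM.

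Among 25 tested matricellular and adhesive glycoproteins, 6 were higher and 1 lower in all 4 pairs, beside 10% and 11.1% of all genes, with a median of 0.98 (sham 0.11). POSTN, or periostin, a product of activated fibroblasts, had 81.7, 969, 366 and 105 CPM in the scar and 61.9, 103, 124 and 97.9 CPM in the border zone (log2 fold change 1.30 ± 0.52, unadjusted p = 0.0433). SPP1, or osteopontin, made by macrophages and fibroblasts of injured tissue, had 12.4, 232, 28.3 and 9.78 CPM in the scar and 7.67, 21.3, 17.8 and 2.63 CPM in the border zone (log2 fold change 1.68 ± 0.50, unadjusted p = 0.0138). CYR61, a matricellular protein that is switched on fast by stretch and growth factors, was the most even of the group: its difference was 0.47, 0.52, 0.36 and 0.43 log2 CPM in pigs 2, 9, 11 and 14. Its log2 fold change was 0.45 ± 0.073, unadjusted p = 0.000583, and in sham pigs it was 0.40 (unadjusted p = 0.04002), so that the IR minus sham difference was 0.055. The lower member was VTN, or vitronectin, a plasma adhesion protein, at 16.9, 12.8, 13.9 and 17.8 CPM in the scar and 21.95, 18.2, 22.2 and 20.4 CPM in the border zone. FN1, or fibronectin, differed by -0.29, 3.21, 2.46 and -0.42 log2 CPM, with the 2 sexes on opposite sides of zero.

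Elastic fibre genes were higher in all 4 pairs for 3 of 16 tested, LTBP1, FBN2 and MFAP5, beside 10% of all genes (list median 0.46). LTBP1, which tethers latent TGF-beta to the matrix, had 97.9, 139.9, 167 and 79.8 CPM in the scar and 53.4, 75.5, 67.7 and 54.3 CPM in the border zone. The 4 scar libraries lay above the 4 border libraries, and its log2 fold change of 0.92 ± 0.13, unadjusted p = 0.000276 was just short of the 2-fold threshold. ELN, or elastin, differed by -0.37, 1.52, 1.94 and 0.54 log2 CPM, with pig 2 on the other side. FBN2 and MFAP5, both microfibril proteins, had log2 fold changes of 0.44 ± 0.12 and 0.51 ± 0.19.

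Fibroblast identity genes were positive for 31 of 32 tested, with a median of 0.53, but 4 were higher in all 4 pairs, near the 10% of all genes, and 0 passed the fold threshold as well. DKK3, a secreted glycoprotein of the dickkopf family, had 307, 290.1, 222 and 294 CPM in the scar and 196, 116, 136 and 189 CPM in the border zone, without overlap (log2 fold change 0.83 ± 0.14, unadjusted p = 0.000708). SFRP2, a secreted Wnt modulator, led this list with a log2 fold change of 5.63 ± 0.84, but rested on the 2 male pigs: it had 0, 72.2, 234 and 0.136 CPM in the scar and 0.386, 0.771, 4.96 and 0 CPM in the border zone. CDH11, the cadherin of fibroblasts, differed by -0.30, 2.41, 1.87 and 0.26 log2 CPM. ACTA2, the smooth muscle actin of myofibroblasts, differed by 0.0096, 1.54, 0.80 and -0.25. In the list of smooth muscle and myofibroblast contraction, 2 of 20 tested were higher in all 4 pairs, the same share as the 10% of all genes, and 1 was lower. The higher ones were NOTCH3, a receptor of mural cells, and CSPG4, a pericyte proteoglycan, with log2 fold changes of 0.34 ± 0.11 and 0.43 ± 0.16. The lower one was TPM2, a tropomyosin, at -0.15, -0.32, -0.32 and -0.11 log2 CPM, and RGS5, also a pericyte gene, differed by 0.16, -0.30, -0.22 and -0.0087. WT1, a mesothelial and epicardial factor, differed by -0.0042, 0.75, 0.67 and -0.52 log2 CPM, and 0 of 8 tested genes of that list were higher in all pairs.

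Growth factors and their antagonists included several low genes that were higher in the scar of each pig. Of 39 tested, 4 were higher in all 4 pairs, near the 10% of all genes, and 0 lower, and 3 passed the thresholds (list median 0.35, sham 0.068). BMP7, a bone morphogenetic protein, had 1.26, 2.58, 4.02 and 0.3397 CPM in the scar and 0.241, 0.143, 1.07 and 0 CPM in the border zone. Its difference was 2.07, 3.59, 1.84 and 2.41 log2 CPM in the 4 pigs, large in both sexes, with a log2 fold change of 2.78 ± 0.50, unadjusted p = 0.00115. FGF18, a fibroblast growth factor of skeletal development, had 1.72, 1.698, 3.900 and 0.951 CPM against 0.289, 0.685, 0.811 and 0.584 CPM, without overlap (log2 fold change 1.74 ± 0.37, unadjusted p = 0.00258). Its IR minus sham difference was 1.97 (unadjusted p = 0.00141). DKK2, a Wnt pathway modulator, differed by 1.38, 2.86, 3.19 and 0.010 log2 CPM, being nearly level in pig 14. TGFB1, a profibrotic cytokine counted in the fibroblast list, had a small difference in each pig, 0.18, 0.082, 0.18 and 0.33 log2 CPM. WIF1, a Wnt inhibitor, was higher in 3 pigs and lower in pig 14, at 1.56, 3.65, 3.13 and -1.34 log2 CPM.

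BMP3, PTN, CRABP1 and CAPN6 were among the 15 named genes with the highest fold changes in all pairs. BMP3, which opposes bone-forming BMPs, differed by 0.33, 3.54, 2.77 and 1.72 log2 CPM. PTN, or pleiotrophin, a heparin-binding growth factor, had 5.91, 106, 53.6 and 4.48 CPM in the scar and 5.07, 2.94, 5.12 and 3.74 CPM in the border zone, so that nearly all of its log2 fold change of 2.46 ± 0.94 came from the male pigs. CRABP1, a carrier of retinoic acid, differed by 0.88, 5.63, 1.22 and 1.28, and in sham pigs it was also higher in the scar position of all 4 (log2 fold change 1.02). CAPN6, a calpain without protease activity, had 5.79, 8.26, 7.98 and 6.66 CPM in the scar and 2.89, 0.599, 2.16 and 0.993 CPM in the border zone, again without overlap. The CAPN6 log2 fold change was 2.29 ± 0.44, unadjusted p = 0.00163 in IR pigs and 0.98 in sham pigs (unadjusted p = 0.0341).

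Some other methods than the edgeR quasi-likelihood test placed genes past the adjusted threshold, 28 with DESeq2, 60 with a likelihood-ratio test and 33 with 1 unwanted factor in the model. SLC6A6 and RYR3 passed in all 3 of these, as did MSTN, KCNJ5, FOSB, CLDN9, PIEZO2 and ILDR2, and KRT14 passed in the likelihood-ratio test. MSTN and KCNJ5 had negative log2 fold changes in sham pigs too. The unwanted factor came from the 5000 genes with the highest p in this same comparison, so that its calls are no independent support. On simulated counts with no gene changed, DESeq2 still placed 10 genes past the adjusted threshold and edgeR's quasi-likelihood test 1. SLC6A6, the taurine transporter, had 165, 85.7, 43.7 and 104 CPM in the scar and 54.7, 41.6, 24.4 and 32.7 CPM in the border zone of pigs 2, 9, 11 and 14. Each pig had more in its scar, although levels of the zones overlapped between pigs, and the log2 fold change was 1.29 ± 0.16 with an unadjusted p of 0.000111 and an adjusted p of 0.431 by edgeR's quasi-likelihood test. DESeq2 gave it a log2 fold change of 1.27 with an adjusted p of 1.9e-08. In sham pigs SLC6A6 differed by -0.018, -0.65, -2.13 and 1.05 log2 CPM, and the IR minus sham difference was 1.72 (unadjusted p = 0.00983). RYR3, a ryanodine receptor that is a minor form in heart, had 0.746, 1.65, 2.89 and 1.09 CPM in the scar and 0.193, 0.228, 0.348 and 0.175 CPM in the border zone, without overlap (log2 fold change 2.71 ± 0.33, unadjusted p = 0.000108). KRT14, a keratin of basal epithelium, was at 0 in both female scars and at 0, 3.001, 10.7 and 0 CPM in the 4 scar zones, so that its fold change rested on the males.

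Myeloid cell genes leaned to the scar as a group. All 30 tested genes of macrophages and dendritic cells had a positive log2 fold change (median 0.46, sham -0.037), 11 were higher in all 4 pairs against 10% of all genes, and 3 passed the thresholds. CD209, a lectin of dendritic cells and macrophages, had 2.35, 36.7, 66.03 and 0.951 CPM in the scar and 0.917, 6.34, 4.08 and 0.643 CPM in the border zone (log2 fold change 2.67 ± 0.52, unadjusted p = 0.00166). GPNMB, a glycoprotein of lipid-laden and phagocytic macrophages, had 15.8, 66.1, 15.5 and 3.601 CPM against 6.03, 3.08, 4.104 and 1.99 CPM (log2 fold change 2.24 ± 0.58, unadjusted p = 0.00709). MARCO, a scavenger receptor, differed by 1.20, 0.25, 2.53 and 0.86 log2 CPM. MERTK, the receptor by which macrophages engulf dead cells, was more even, at 0.97, 0.93, 0.47 and 0.59 log2 CPM (log2 fold change 0.76 ± 0.15, unadjusted p = 0.00207). TYROBP, an adaptor of myeloid receptors, differed by 0.11, 0.45, 0.61 and 0.42. CD68, the lysosomal macrophage marker, was higher in 3 pigs and level in pig 14, at 0.47, 1.14, 1.27 and -0.017 log2 CPM. The summed CPM of the list ran from 546 to 1598 in the scar and from 509.7 to 825 in the border zone. In tissue of mixed cells, a change in the number of cells of a type and a change in RNA per cell cannot be told apart.

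Lymphocyte genes did not lean either way. The median over 41 tested T, NK and B cell genes was 0.022, with 5 higher and 2 lower in all 4 pairs, beside 10% and 11.1% of all genes. PTPRC, the pan-leucocyte marker CD45, differed by 0.034, -0.18, 0.36 and 0.13 log2 CPM, and CD3E, of the T cell receptor complex, by 0.71, -0.43, 0.061 and 0.61. The members higher in each pair included B and plasma cell genes: CD79A, of the B cell receptor, had 13.9, 9.91, 10.8 and 8.56 CPM in the scar and 6.803, 8.02, 6.68 and 6.02 CPM in the border zone, and JCHAIN, which joins secreted antibodies, differed by 0.18, 0.51, 0.53 and 0.54 log2 CPM. The B cell marker MS4A1 was at or below 0.135 TPM in all 8 libraries. CXCL2, a neutrophil attractant, had 4.13, 5.35, 30.6 and 4.96 CPM against 1.21, 4.51, 5.101 and 2.86 CPM (log2 fold change 1.37 ± 0.41, unadjusted p = 0.0134), and 4 of 27 tested chemokine and interleukin genes were higher in all 4 pairs, near the 10% of all genes (list median 0.24, sham -0.12). IL10, an anti-inflammatory cytokine, was among them, at 0.38, 0.84, 1.06 and 0.18 log2 CPM.

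Complement genes had a list median of 0.76 over 15 tested (sham 0.034), with 5 higher and 1 lower in all 4 pairs, beside 10% and 11.1% of all genes. CFB, the protease of the alternative pathway, had 0.803, 3.07, 9.71 and 0.543 CPM in the scar and 0.482, 0.799, 1.32 and 0.409 CPM in the border zone (log2 fold change 1.81 ± 0.45, unadjusted p = 0.00571). C2, its classical pathway counterpart, differed by 0.091, 0.93, 1.34 and 0.51, the receptor C5AR1 by 0.49, 1.00, 1.13 and 0.29, and SERPING1, the C1 inhibitor, by 0.16, 1.36, 1.496 and 0.20 log2 CPM. Interferon-stimulated and antigen presentation genes had a median of 0.028, with 4 of 31 tested higher and 1 lower in all 4 pairs, the first near the 10% of all genes. MX1, an antiviral GTPase, had 29.7, 37.8, 407 and 35.5 CPM in the scar and 26.1, 21.8, 376 and 31.4 CPM in the border zone, so that pig 11 stood far above the other pigs in both zones. The pairs differed by 0.18, 0.79, 0.12 and 0.18 log2 CPM, pig 9 standing apart from the other 3.

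Immediate-early genes, which respond within minutes to stimulation of a cell, were higher in all 4 pairs for 11 of 22 tested and lower for 1, beside 10% and 11.1% of all genes, and 4 passed the thresholds. The list median was 0.26 in IR and 0.15 in sham pigs, in which 3 were higher in all pairs, beside 7.35% of all genes tested there. FOSB, an AP-1 subunit, had 0.688, 3.21, 33.4 and 1.09 CPM in the scar and 0.145, 0.371, 0.997 and 0.409 CPM in the border zone (log2 fold change 3.60 ± 0.63, unadjusted p = 0.000936). FOS, its close relative, had 11.01, 59.6, 365 and 17.5 CPM against 8.11, 6.91, 25.8 and 8.35 CPM, and pig 11 had the highest scar level of both (log2 fold change 2.23 ± 0.61, unadjusted p = 0.00921). EGR1, a zinc finger factor, differed by 0.35, 1.38, 2.64 and 0.26 and SOCS3, a brake on cytokine signalling, by 0.14, 1.19, 2.40 and 0.30 log2 CPM. In sham pigs FOSB differed by 1.17, 3.71, 0.85 and -2.68 log2 CPM in pigs 4, 5, 12 and 13, a range wider than the IR range. DUSP1, a phosphatase that switches off MAP kinases, was higher in the scar position of all 4 pigs of both groups, by 0.69, 0.41, 1.58 and 0.26 in IR pigs and by 0.36, 0.28, 0.35 and 0.26 in sham pigs. IER3, a stress-response gene, was the lower one, at 39.9, 15.2, 39.1 and 31.9 CPM in the scar and 51.9, 24.3, 54.1 and 43.6 CPM in the border zone (log2 fold change -0.48 ± 0.081, unadjusted p = 0.000726), and its IR minus sham difference was -0.65 (unadjusted p = 0.00275).

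**Figure D3:**
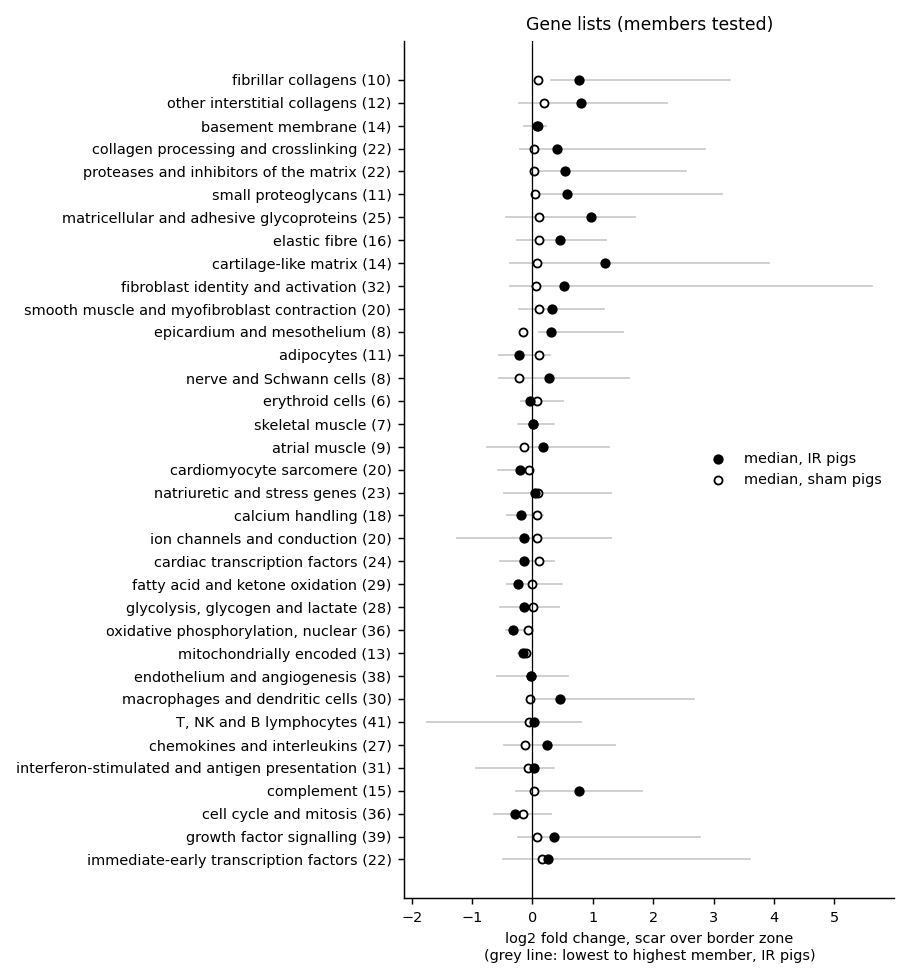
Median log2 fold change of scar over border zone for 35 gene lists in IR pigs (filled) and sham pigs (open), with a grey line from the lowest to the highest member in IR pigs and the number of members tested in brackets. Cartilage-like matrix has the highest IR median, 1.20, and nuclear oxidative phosphorylation the lowest, -0.33, while sham medians run from -0.22 for nerve and Schwann cells to 0.20 for other interstitial collagens.

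Cardiomyocyte genes were lower in the scar by small amounts. All 20 tested sarcomere genes had a negative log2 fold change (median -0.21, sham -0.050), 8 were lower in all 4 pairs against 11.1% of all genes, and 0 reached a 2-fold difference. TNNC1, the calcium-binding troponin, had 4094, 2437, 3321 and 4295 CPM in the scar and 5149, 3868, 5364 and 4644 CPM in the border zone (log2 fold change -0.44 ± 0.15, unadjusted p = 0.0235). TPM1, or tropomyosin, differed by -0.38, -0.41, -0.66 and -0.16 log2 CPM, MYL2 by -0.29, -0.32, -0.66 and -0.058 and TNNT2, or cardiac troponin T, by -0.27, -0.43, -0.24 and -0.12. TNNI3, or cardiac troponin I, was lower in the male pigs and level in the females, at -0.071, -1.15, -1.11 and 0.047. MYH7, the slow myosin heavy chain, differed by -0.010, -0.22, -0.33 and -0.0082, and its mean turned to the other side of zero on the TPM scale. The summed CPM of the list ran from 74769 to 105906 in the scar and from 98159.9 to 125974 in the border zone.

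Natriuretic and stress genes of the myocyte had no common direction, with 13 of 23 tested positive and a list median of 0.047 (sham 0.097). NPPA, the atrial natriuretic peptide gene that ventricle expresses again under load, had 312, 312, 145 and 19.5 CPM in the scar and 177, 53.2, 53.6 and 17.7 CPM in the border zone (log2 fold change 1.26 ± 0.37, unadjusted p = 0.0125). Sham pigs differed at NPPA by 1.37, -1.41, -7.39 and 1.02 log2 CPM, so that its regional spread without ischemia exceeded the IR differences. NPPB, the brain natriuretic peptide gene, was higher in 3 pigs and lower in pig 2, at -0.27, 3.01, 0.31 and 2.16 log2 CPM. FHL2, a sarcomere-anchored cofactor, was lower in all pairs (log2 fold change -0.47 ± 0.13, unadjusted p = 0.00939). Of 23 tested genes of this list 2 were higher and 3 lower in all 4 pairs, near the 10% and 11.1% of all genes.

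Calcium handling genes were lower in all 4 pairs for 4 of 18 tested and higher for 0, beside 11.1% and 10% of all genes (median -0.20, sham 0.074). TRDN, or triadin, of the calcium release complex, differed by -0.16, -0.36, -0.53 and -0.12 log2 CPM, and PLN, or phospholamban, the brake on the calcium pump, by 0.090, -0.94, -0.68 and -0.17. Of 20 tested ion channel and conduction genes 2 were higher and 3 lower in all pairs, near the 10% and 11.1% of all genes. KCNJ5, a subunit of the acetylcholine-activated potassium channel, had 26.1, 89.5, 42.8 and 25.00 CPM in the scar and 68.5, 144, 84.6 and 103 CPM in the border zone. Each pig had less in its scar (log2 fold change -1.25 ± 0.22, unadjusted p = 0.0008704), and sham pigs had a log2 fold change of -1.37, so that the IR minus sham difference was 0.11 (unadjusted p = 0.902). KCNA5, a voltage-gated potassium channel, had 32.3, 20.3, 29.5 and 29.6 CPM in the scar and 36.7, 39.96, 54.4 and 57.7 CPM in the border zone, without overlap, and was also lower in the scar position of all 4 sham pigs (log2 fold change -0.40). CACNA1H, a T-type calcium channel, was higher in each scar, at 0.70, 1.28, 0.55 and 0.40 log2 CPM. GJA1, or connexin 43, the main ventricular gap junction protein, differed by -0.20, -0.41, -0.48 and -0.058.

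Among 24 tested cardiac transcription factors, 1 was higher and 1 lower in all 4 pairs, beside 10% and 11.1% of all genes (median -0.15). HAND2, a ventricular regulator, was the lower one, at -0.52, -0.16, -0.39 and -0.28 log2 CPM, and NKX2-5, a core cardiac factor, differed by -0.30, -0.87, -0.85 and 0.14. NR2F2, an atrial and venous factor held in the atrial list, was higher in each scar, at 0.33, 0.92, 0.91 and 0.066.

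Nuclear genes of mitochondrial respiration leaned to the border zone. All 36 tested nuclear genes of oxidative phosphorylation had a negative log2 fold change, from -0.43 to -0.15 (median -0.33, sham -0.075), and 9 were lower in all 4 pairs, beside 11.1% of all genes. COX6C, a subunit of cytochrome oxidase, had 352, 223, 258 and 306 CPM in the scar and 409, 337, 425 and 357 CPM in the border zone (log2 fold change -0.43 ± 0.12, unadjusted p = 0.0102). CYCS, or cytochrome c, differed by -0.17, -0.75, -0.72 and -0.061 log2 CPM. The 13 tested genes of the mitochondrial genome had a median of -0.16 and 0 lower in all pairs, and both female pigs had slightly more in the scar: COX2 differed by 0.18, -0.77, -0.59 and 0.19 log2 CPM.

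Of 29 tested genes of fatty acid and ketone oxidation, 9 were lower and 2 higher in all 4 pairs, beside 11.1% and 10% of all genes (median -0.24). ACADL, the long-chain acyl-CoA dehydrogenase, had 203, 250.1, 276 and 259 CPM in the scar and 257, 302, 389 and 309 CPM in the border zone (log2 fold change -0.33 ± 0.089, unadjusted p = 0.00844). HADH, a later step of the same cycle, differed by -0.26, -0.77, -0.50 and -0.10 log2 CPM. Glycolysis, glycogen and lactate genes were lower in all pairs for 4 of 28 tested, near the 11.1% of all genes, and their mean difference was 0.091, -0.46, -0.33 and 0.13 log2 CPM in pigs 2, 9, 11 and 14. Among the 4 was PFKM, muscle phosphofructokinase, at -0.38, -0.50, -0.38 and -0.19 log2 CPM. LDHD, the mitochondrial D-lactate dehydrogenase, was in no list and lay further down than any of these, with 5.74, 5.398, 5.597 and 7.61 CPM in the scar and 10.2, 14.3, 11.99 and 12.9 CPM in the border zone. The 4 scar libraries lay below the 4 border libraries (log2 fold change -1.02 ± 0.15, unadjusted p = 0.000305), and against a sham log2 fold change of -0.086 the IR minus sham difference was -0.94, of which the IR part is the one by which LDHD was picked.

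The 15 genes lower in the scar by the full rule were mostly low in level, as were the 144 higher ones. The median level was 1.97 CPM for the lower and 1.78 CPM for the higher genes, against 16.9 CPM over all genes tested. MSTN, or myostatin, the inhibitor of muscle growth, had 0.459, 1.02, 1.67 and 0.204 CPM in the scar and 2.22, 5.68, 4.89 and 2.45 CPM in the border zone, without overlap (log2 fold change -2.27 ± 0.32, unadjusted p = 0.000291). In sham pigs its log2 fold change was -1.05 (unadjusted p = 0.0258), and the IR minus sham difference was -1.14 (unadjusted p = 0.109). CLDN9, a tight junction protein, was at 0, 0, 0 and 0.679 CPM in the scar and 0.868, 3.14, 1.16 and 3.68 CPM in the border zone. It was thus listed at 0 in the scars of 3 pigs, and CLDN9 has close relatives among the claudins with which reads could be shared. HJV, a BMP co-receptor, differed by -0.62, -1.76, -0.43 and -1.98 log2 CPM. TMEM74B and ANKRD9, both less well known, differed by -1.33, -0.59, -1.09 and -1.04 and by -0.93, -0.78, -1.73 and -0.91 log2 CPM. HS3ST5, a heparan sulfate sulfotransferase, differed by -0.67, -0.62, -0.62 and -3.01 log2 CPM and had a log2 fold change of -1.16 in IR and -1.05 in sham pigs. Without pig 14, which had by far the largest difference, the HS3ST5 log2 fold change in IR pigs was -0.68. HIST1H2BB, a histone gene, and ADCYAP1R1, the receptor of the neuropeptide PACAP, had log2 fold changes of -1.17 ± 0.32 and -1.07 ± 0.44. ADCYAP1R1 differed by -0.16, -2.71, -0.18 and -1.34 log2 CPM, and without pig 9 its log2 fold change was -0.55.

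Vessel genes had a median near zero. The median of 38 tested endothelial and angiogenic genes was -0.021, with 3 higher and 2 lower in all 4 pairs (10% and 11.1% of all genes), and PECAM1, the endothelial adhesion molecule CD31, differed by 0.052, -0.22, 0.084 and -0.013 log2 CPM. PLVAP, of the diaphragm of fenestrated endothelium, differed by nearly the same amount in each pig, with 66.8, 114, 99.5 and 107 CPM in the scar and 49.98, 86.4, 73.7 and 82.6 CPM in the border zone and a difference of 0.42, 0.40, 0.43 and 0.37 log2 CPM (log2 fold change 0.42 ± 0.072, unadjusted p = 0.000881). In sham pigs PLVAP had a log2 fold change of -0.061. CA4, a capillary carbonic anhydrase, was lower in each pair, at -0.23, -0.98, -0.55 and -0.037.

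Markers of other cells that a cube of ventricle could hold had no common direction. ADIPOQ, an adipocyte hormone, differed by -2.32, 1.35, -1.05 and 0.94 log2 CPM at no more than 2.55 CPM, and FABP4, of adipocytes and capillaries, was lower in each pair of IR pigs, at -0.22, -0.60, -0.28 and -0.17. HBB, of red cells, differed by 0.33, -1.34, 0.31 and -0.16. Skeletal muscle genes had a median of 0.0064 over 7 tested and erythroid genes -0.039 over 6. PRPH, a neurofilament of peripheral nerve, was higher in all 4 scars at under 1 CPM, at 1.16, 1.46, 1.05 and 1.503 log2 CPM, while the nerve and Schwann cell list had a median of 0.27 over 8 tested. The part of these cells in the results was not tested.

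Of 36 tested cell cycle genes 5 had a positive log2 fold change, but the pigs differed in this: the list mean was -0.77, -0.23, 0.13 and -0.14 log2 CPM in pigs 2, 9, 11 and 14, so that pig 2 lay furthest towards the border zone and pig 11 on the other side. Of these 36, 5 were lower, a share near the 11.1% of all genes, and 0 higher in all 4 pairs, with a median of -0.29 in IR and -0.15 in sham pigs. CDK1, the mitotic kinase, had 18.2, 5.79, 8.57 and 16.3 CPM in the scar and 43.3, 10.8, 9.48 and 19.7 CPM in the border zone (log2 fold change -0.64 ± 0.20, unadjusted p = 0.0167). Pig 2 had the highest border level and the largest difference, while pig 11 was nearly level. NUSAP1, of the mitotic spindle, differed by -0.55, -0.52, -0.21 and -0.25 log2 CPM. In sham pigs 5 genes of the list were lower in all 4 pairs, beside 6.07% of all genes tested there.

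The matching positions in sham pigs gave few zone differences. Of 13803 genes tested, 8 (0.058%) were higher and 8 (0.058%) lower in the scar position by the full rule, 1014 (7.35%) were higher and 838 (6.07%) lower in all 4 sham pairs, and 0 passed the adjusted threshold in edgeR (659, or 4.77%, at an unadjusted p of at most 0.05, and 1 gene past the adjusted threshold in DESeq2). Of the 144 genes higher in IR scars, 120 could be tested in sham pigs. Of these, 9 (7.5%) were higher and 7 (5.83%) lower in all 4 sham pairs, shares close to those of all genes, and their median sham log2 fold change was 0.054. The 15 lower genes had a median of -0.20 in sham pigs, where 3 of them were lower in all 4 pairs. The direct test of the zone difference in IR minus sham pigs found 199 of 14278 genes (1.39%) with a difference larger by at least 1 on the log2 scale at an unadjusted p of at most 0.05 and 18 (0.126%) with a smaller one. It called 0 genes after adjustment (smallest adjusted p 0.702 with edgeR; 1 gene with DESeq2, and 998, or 6.99%, at an unadjusted p of at most 0.05). The IR samples of that test are those of the scar and border comparison.

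The 4 IR pigs were not alike, and the 2 male pigs set most of the largest differences. Over the 144 genes the median scar minus border difference was 0.785 log2 CPM in pig 2, 1.81 in pig 9, 1.53 in pig 11 and 0.733 in pig 14. Pig 9 had the largest difference for 73 of them and pig 11 for 41. Both males exceeded both females for 73 of the 144 genes (50.7%) and for 25.0% of all genes tested. The same pairs chose these genes, and over all genes the differences also spread most in the males, with an SD of 0.503 log2 CPM in pig 2, 0.689 in pig 9, 0.556 in pig 11 and 0.469 in pig 14, so that this order among the 144 is a description only. The 15 lower genes did not follow this order, with medians of -0.977, -1.39, -0.982 and -1.34.

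Several of the named genes that passed the thresholds moved by more than 1.5 times when 1 male pig was left out. Without pig 9 the log2 fold change was 1.90 for COL11A1, 1.09 for COL12A1, 0.88 for COL6A5, 0.70 for POSTN, 1.02 for SPP1 and 1.19 for ADAM12. It was 0.96 for BGN, 0.90 for CHAD, 1.43 for PTN, 1.18 for CRABP1, 1.47 for GPNMB and 0.84 for NPPA. Without pig 11 it was 2.37 for FOSB, 0.68 for EGR1, 0.57 for SOCS3, 0.78 for MARCO, 0.89 for CXCL2 and 1.20 for CFB. MATN3, PRPH, RUNX2, SP7 and BMP7 did not pass the filter on low counts without 1 or other of these pigs.

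The list means show which groups differed by pig. Fibrillar collagens differed on average by 0.22, 2.11, 1.71 and -0.058 log2 CPM in pigs 2, 9, 11 and 14, and small proteoglycans by 0.074, 2.44, 1.64 and 0.21. Complement differed by -0.11, 1.17, 1.22 and 0.095 and macrophage genes by 0.19, 0.80, 0.95 and 0.16. Nuclear oxidative phosphorylation lay the other way, at -0.10, -0.67, -0.56 and 0.042, and sarcomere genes at -0.021, -0.48, -0.49 and 0.013. In each of these the 2 female pigs lay near zero, within the span of the sham pigs or close to it, and the 2 male pigs lay apart. Lymphocyte genes, at 0.089, -0.29, 0.17 and 0.17, had no such order, and basement membrane genes, at 0.015, 0.070, 0.14 and -0.0010, stayed near zero in each pig.

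**Figure D4:**
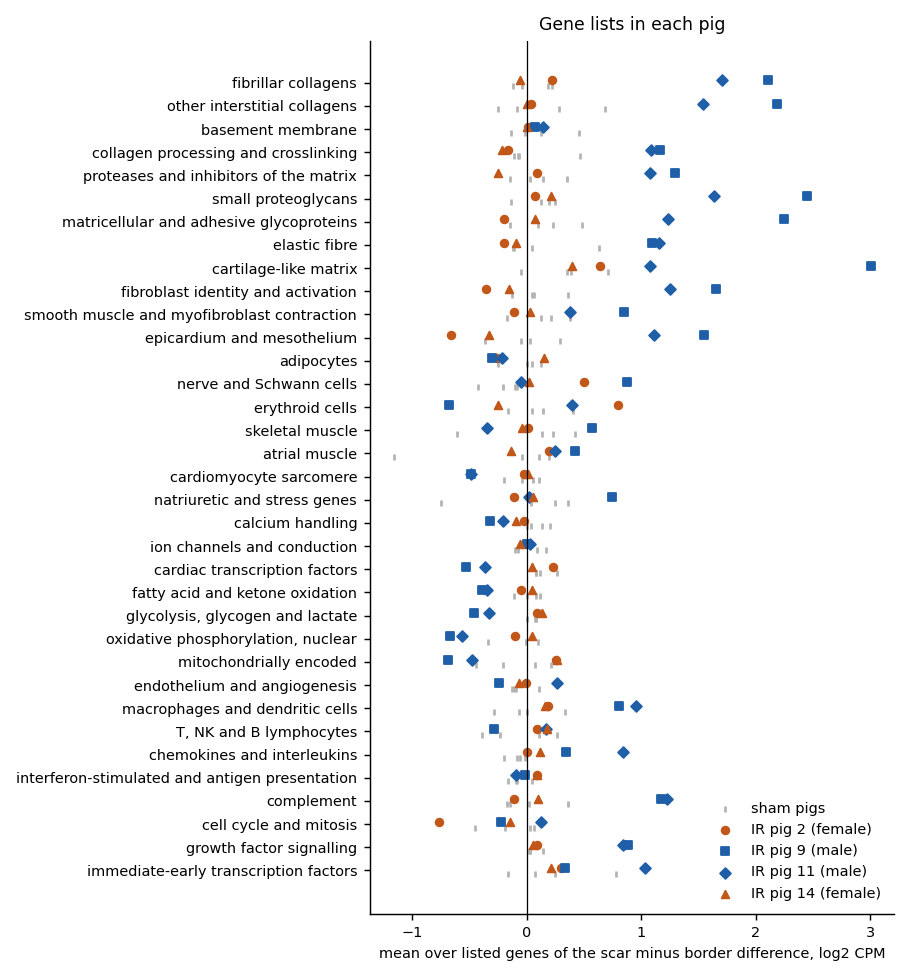
Mean scar minus border difference in log2 CPM over the tested genes of each of 35 lists, with 1 symbol per IR pig (orange female, blue male) and grey ticks for sham pigs. For fibrillar collagens the male pigs sit at 2.11 and 1.71 and the female pigs at 0.22 and -0.058, inside the range of the sham ticks or near it.

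The test of the zone difference in male minus female IR pigs called 660 of 14757 genes (4.47%) at an adjusted p of at most 0.05 (edgeR's quasi-likelihood test), of which 342 (2.32%) had a difference at least 1 log2 unit larger in the males and 85 (0.576%) one at least 1 unit smaller. Each sex had 2 pigs, and depth moved with sex in the IR libraries: with every library thinned to equal depth, 414 genes passed the adjusted p and fold, against 427 as deposited. By the same rule the count was 0 without pig 2, 69 without pig 14, 484 without pig 9 and 797 without pig 11, and it was 0 when the pig was left out of the model as a block. Sex cannot be told apart from any other way in which these 2 pairs of pigs differed.

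Matrix genes were among those with the larger differences. At an adjusted p of at most 0.05 and 1 log2 unit or more, 6 of 10 fibrillar collagens, 9 of 12 other interstitial collagens, 7 of 11 small proteoglycans, 14 of 25 matricellular genes and 13 of 33 fibroblast genes had a larger zone difference in males, beside 2.32% of all genes. The same held for 2 of 16 genes of cartilage-like matrix and 0 of 14 basement membrane genes. COL1A1 had a male minus female difference of 2.83 (adjusted p = 0.000984, edgeR), FN1 one of 3.20 (adjusted p = 0.001204) and LOX one of 2.23 (adjusted p = 0.00112). For SFRP2 it was 7.54 (adjusted p = 0.0458, edgeR). Beyond the matrix, FOS had 2.74 (adjusted p = 0.00356, edgeR) and SERPING1 1.25 (adjusted p = 0.00528). On the other side, TNNI3 had -1.12 (adjusted p = 0.00552, edgeR), and all 13 genes of the mitochondrial genome had a smaller difference in males at an adjusted p of at most 0.05, with a median of -0.82 log2 units. Of 44 lymphocyte genes 0 and 1 of 30 macrophage genes passed in the direction of the males at 1 log2 unit.

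**Figure D5:**
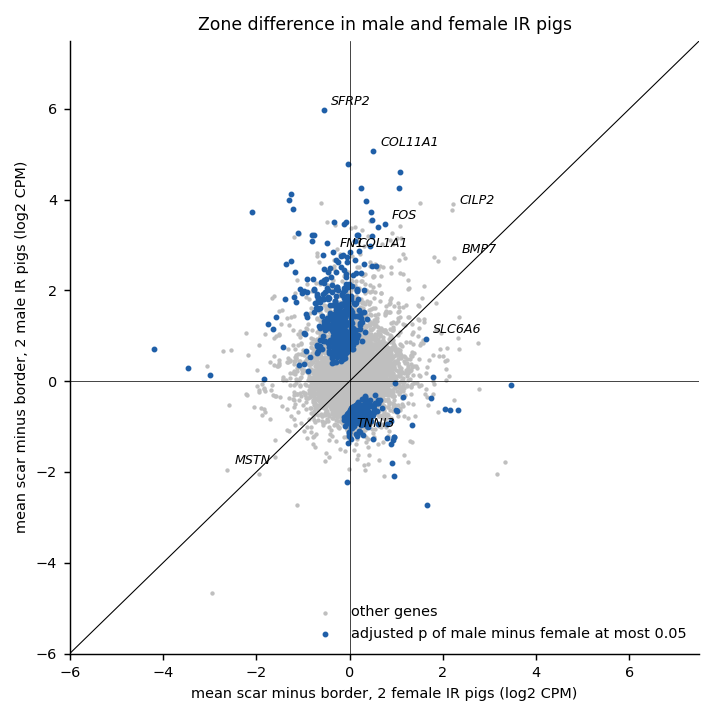
Mean scar minus border difference in log2 CPM over the 2 female IR pigs (horizontal) and the 2 male IR pigs (vertical), with 1 point per gene and blue points for an adjusted p of male minus female of at most 0.05. COL1A1, FN1 and SFRP2 lie high at a female mean near or below zero, while BMP7 and MSTN lie near the diagonal of equal difference.

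Other genes had male minus female values nearer zero, which does not show that the sexes were alike. BMP7 had a male minus female difference of -0.012 (adjusted p = 0.9902, edgeR), TNFRSF11B one of -0.013 (adjusted p = 0.994), PLVAP one of 0.022 (adjusted p = 0.953) and CYR61 one of -0.0055 (adjusted p = 0.9901). For SLC6A6 the females had the larger difference, by a male minus female value of -0.69 (adjusted p = 0.0413, edgeR). The log2 fold change of BMP7 was 2.84 without pig 2, 2.23 without pig 9 and 2.66 without pig 14, and without pig 11 BMP7 did not pass the filter on low counts. Leaving out each of the 4 pigs in turn kept the log2 fold change of SLC6A6 between 1.16 and 1.44, that of LDHD between -1.12 and -0.89 and that of MSTN between -2.63 and -2.07. For COL1A1 the same range was 0.85 to 1.97, and for COL3A1 0.38 to 1.19.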

How the data were processed

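Left ventricular tissue of 8 pigs, 2 zones each, was sequenced from polyA-selected stranded libraries (75 bp paired reads). The submitters' processing notes name Trimmomatic 0.33, HISAT2 2.0.5 and kallisto 0.43.1, and the study's methods an Ensembl pig transcript index; build and release are not given in the sources used here. The authors deposited estimated counts per gene, which need not be whole, and TPM values, both from pseudoalignment; the deposited TPM was used for marker levels and 1 alternative. Ensembl identifiers without a symbol were named from a supplied table for 889 genes.

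Estimated counts were rounded, filtered (filterByExpr, minimum count 10, total 15) and TMM-scaled, and tested with edgeR 4.0.16 (R 4.3.3) quasi-likelihood fits with pig as block: scar against border in 8 IR samples, the same in 8 sham samples, the interaction of zone with surgery in all 16, and of zone with sex in the IR samples. A call needed a fold of 2, an unadjusted p of at most 0.05 and the same sign of the log2 CPM difference (prior count 2) in all 4 pairs, with the Benjamini-Hochberg adjusted p beside it. An exact sign-flip test of 4 pairs cannot go below p = 0.125, so that none is given. Scar and border of 1 pig share the animal: deviations from the zone means correlated at 0.353 to 0.651 across genes within IR pigs and at most at 0.118 with another pig's border. The fits were tested on simulated counts with known changes. Of 200 genes changed by 2 log2 units or more, edgeR placed 196, and 14 unchanged ones, past the adjusted p and fold. With no gene changed, the rule of p, fold and all 4 pairs called 45 genes with edgeR and 46 with DESeq2. In that setting 1 gene with edgeR and 10 with DESeq2 passed the adjusted p and fold.

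Named genes were, by rule, the 15 highest and 10 lowest called genes of at least 1 mean CPM, up to 4 lowest-p members of each of 35 lists, a fixed set of markers, and up to 5 genes past the adjusted threshold under an alternative; RUNX2, SP7, TNFRSF11B and a few further members of the lists were added after their values were seen. Members, lists and tests were chosen with earlier results of these data known. MKI67 was not analysed here, and a few genes that the rule names are not reported here. Alternatives were DESeq2 1.42.0, limma 3.58.1 on log2(TPM + 1) and log2(TPM + 0.1), other scalings and filters, no block, all 16 samples, a likelihood-ratio test, 1 unwanted factor, each pig left out, and, added after seeing the data, libraries thinned to equal depth and limma for the sex interaction.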

Additional observations from a re-analysis of the deposited data

Results flagged for a closer look

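In 7 of the 149 genes named in these results, the scar minus border difference of 1 IR pig stood apart from those of the other 3 beyond Dixon's 95% critical value for 4 values; chance would give about 5% of genes such a flag. Pig 9 stood apart at DKK3 (1.32 log2 CPM), CRABP1 (5.63) and MX1 (0.79), pig 2 at JCHAIN (0.18) and KCNA5 (-0.18), pig 11 at ANKRD9 (-1.73), and pig 14 at HS3ST5 (-3.01).

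In 33 of the named genes the zone difference of male and female IR pigs differed by the interaction test (edgeR, adjusted p of at most 0.05). In log2 units, the male minus female difference was 7.54 for SFRP2, 4.51 for COL11A1, 3.98 for PTN, 3.80 for P4HA3, 3.47 for KERA, 3.20 for FN1, 3.17 for FMOD, 3.09 for ADAM12, 3.07 for COL8A2 and 2.83 for COL1A1. It was 2.74 for FOS, 2.56 for COL12A1, 2.23 for LOX, 2.17 for COL3A1, 2.16 for CDH11, 2.14 for POSTN, 2.07 for BGN, 1.72 for EGR1, 1.65 for ELN and 1.58 for SERPINF1. Smaller positive values were 1.29 for ACTA2, 1.25 for THBS1 and for SERPING1, 1.22 for TIMP1 and 0.86 for CRTAP. Negative values were -0.69 for SLC6A6, -0.77 for PLN and for NKX2-5, -0.84 for ESRRA, -0.85 for ND1, -0.86 for COX2, -0.90 for PGAM2 and -1.12 for TNNI3. Each sex had 2 pigs, and other differences between these animals cannot be told apart from sex.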

How the results depend on the processing

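The scar minus border counts in IR pigs of 144 higher, 15 lower and 0 past the adjusted p changed as follows. DESeq2 gave 28 past the adjusted p, a likelihood-ratio test 60 (and 23 lower), and 1 unwanted factor with the replicate block 33. With no filter 23 were lower, with a CPM filter 75 higher and 9 lower, and with no fold threshold 707 and 580. With limma there were 50, 2 and 3 on log2(TPM + 1) and 75, 4 and 3 on log2(TPM + 0.1). Leaving out each pig gave 79 to 328 higher, 15 to 30 lower and 0 to 1 past the adjusted p. The same direction was then needed in the remaining pairs only, here and in sham pigs, which is easier to meet. Without the replicate block, counts were 130, 11 and 0, and 128 of 141 genes were among the 159. In sham pigs (8, 8 and 0), DESeq2 gave 15 lower and 1 past the adjusted p, no filter 19, 21 and 1, no replicate block 4 and 4, and leaving out each pig 11 to 35, 14 to 24 and 0 to 4. For IR minus sham (199 larger, 18 smaller), smaller differences numbered 30 with DESeq2 (1 past the adjusted p), 34 with no filter and 7 with no replicate block; leaving out each pig gave 110 to 401 and 20 to 51. For male minus female (780 larger, 227 smaller, 427 past the adjusted p and fold), no replicate block gave 120 smaller and 0 past the adjusted p, limma 37 and 743, and leaving out each pig 179 to 377 and 0 to 797, the remaining pig of a sex being assumed to vary like the others. The cause of these shifts was not tested. Of 2273 values of named genes under an alternative, 2263 kept their direction. The reversed ones were MYH7 (0.019 on both TPM scales), RGS5 (0.070013 and 0.071 on the TPM scales), PECAM1 (0.151 and 0.153 on the TPM scales, -0.051 to 0.049 with each pig left out), PTPRC (-0.0031 to 0.186 with each pig left out), ADIPOQ (-1.15 to 0.184, 3 of the 4 pigs) and HBB (-0.390 to 0.168). At this depth, genes under 1 CPM rest on few counts, and 4 pairs limit every test.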
